A study of Mus musculus with 12 samples.

Results

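The 10 genes described here encode the core of transforming growth factor beta (TGF-beta) signalling in the mouse. They are the ligands Tgfb1, Tgfb2 and Tgfb3, the receptors Tgfbr1, Tgfbr2 and Tgfbr3, and the intracellular proteins Smad2, Smad3, Smad4 and Smad7. They were matched to the data by gene symbol, and the choice was made with earlier results of these data known. All 10 were found among the 55401 genes of the data, and all 10 were among the 14313 genes with a mean level of at least 1 FPKM that entered the tests. FPKM counts fragments per kilobase of a transcript after division by the size of the library. RNA was sequenced from dermis, the collagen-rich layer below the epidermis, of C57BL/6 mice aged 6 weeks. The mice were wild type (WT) or Cthrc1-/-, that is, without the secreted collagen triple helix repeat protein Cthrc1. Tissue was taken on day 0 and day 7 of an experiment with paired wounds of equal size, and each genotype had 3 biological replicates on each day, 12 libraries in 4 groups. All 4 groups share the strain and the age. The labels name no drug treatment and do not give the sex, how the Cthrc1 allele was made, how the wounds were made, or whether libraries share an animal. The study asked how gene expression in wounded dermis differs between the genotypes, and the comparisons here put that question to the TGF-beta pathway.

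TGF-beta is secreted as a latent complex and must be released before it can bind. The active ligand binds Tgfbr2, a serine/threonine kinase receptor, which recruits and phosphorylates Tgfbr1. Tgfbr3, also called betaglycan, is a co-receptor without kinase activity that presents ligand, Tgfb2 above all, to Tgfbr2. Activated Tgfbr1 phosphorylates Smad2 and Smad3, which join Smad4 and enter the nucleus, while Smad7 is induced by the pathway and inhibits the receptors. In skin wounds TGF-beta is known for its effects on matrix synthesis by fibroblasts, on the conversion of fibroblasts to contractile myofibroblasts and on inflammation.

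Libraries held between 48329668 and 76938132 counts, and the 10 genes between 501 and 20218 counts in a library. Cthrc1 itself had at most 15 counts in each Cthrc1-/- library and at least 1813 in each WT library. Its log2 change between genotypes was -8.90 on day 0 (edgeR adjusted p 0.00941) and -11.07 on day 7 (edgeR adjusted p 0.011). Markers of dermal fibroblasts (Pdgfra, Pdgfrb, Dpt, Lum and Col6a2) were detected in all libraries, with sums from 85.7 to 747 FPKM. Keratinocyte markers (Krt5, Krt14, Krt1, Krt10 and Trp63) had higher sums, from 2238 to 9225 FPKM, so epidermal transcripts were present in all libraries labelled dermis. Several libraries stood apart from their groups. In Cthrc1-/- day 0 replicates 1, 2 and 3 the fibroblast sum was 415, 238 and 85.7 FPKM, against 594 to 664 FPKM in WT day 0. The sum of 8 hair follicle markers in these 3 Cthrc1-/- libraries was 232, 4711 and 11580 FPKM, against 8.40 to 10.97 FPKM in WT day 0. In WT day 7 replicate 1 the sum of 5 neutrophil markers was 4829 FPKM, against 739 and 38.6 FPKM in WT day 7 replicates 2 and 3. The same library had the lowest keratinocyte sum, 2238 FPKM, against 5947 and 9225 FPKM in those replicates.

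The 250 bases before the annotated start were taken from the RefSeq promoter table (GRCm38.p6). Tgfb3 and Tgfbr3 had no matched entry in it. Smad2, Smad4 and Smad7 were not examined, which does not mean that they lack an entry. The genes examined were 5, namely Tgfb1, Tgfb2, Tgfbr1, Tgfbr2 and Smad3. Of these, 3 are shown because they stand for the patterns described below: Tgfb1 was highest in WT day 7, and Tgfb2 and Tgfbr2 were lower in all Cthrc1-/- day 0 libraries than in WT day 0. Both strands were searched for the Smad half-site CAGAC, the AP-1 motif TGANTCA, the GC box GGGCGG, the cyclic AMP response element TGACGTCA and the E-box CACGTG, none of which contains another. Matches are in capitals, each sequence reads 5′ to 3′ on the strand of its gene, and positions count back from the start. Tgfb1 lies at chr7:25686752-25687001 on the plus strand, Tgfb2 at chr1:186705990-186706239 on the minus strand and Tgfbr2 at chr9:116175364-116175613 on the minus strand.
Tgfb1: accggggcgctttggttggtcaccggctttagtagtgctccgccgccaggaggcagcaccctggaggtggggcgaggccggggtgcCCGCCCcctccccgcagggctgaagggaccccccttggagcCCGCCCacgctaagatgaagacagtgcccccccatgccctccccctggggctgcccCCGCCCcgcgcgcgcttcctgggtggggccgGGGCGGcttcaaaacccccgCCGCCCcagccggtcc
Tgfb2: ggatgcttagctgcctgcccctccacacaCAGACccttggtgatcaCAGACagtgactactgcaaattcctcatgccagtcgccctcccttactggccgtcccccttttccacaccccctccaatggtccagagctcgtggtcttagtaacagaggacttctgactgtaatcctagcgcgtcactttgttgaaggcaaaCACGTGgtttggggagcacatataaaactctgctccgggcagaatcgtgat
Tgfbr2: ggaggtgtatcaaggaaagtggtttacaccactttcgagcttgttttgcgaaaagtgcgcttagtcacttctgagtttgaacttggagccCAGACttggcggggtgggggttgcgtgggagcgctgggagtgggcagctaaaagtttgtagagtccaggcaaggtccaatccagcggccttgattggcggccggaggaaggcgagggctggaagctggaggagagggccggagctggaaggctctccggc

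The Tgfb1 stretch held 5 GC boxes and 75.2% G and C, against a median of 52.4% over all 32851 promoters of the table. The Tgfb2 stretch held 53.6% G and C, 2 Smad half-sites at -221 to -217 and -204 to -200, and an E-box at -51 to -46. The Tgfbr2 stretch held 58.4% G and C and 1 Smad half-site at -160 to -156. A Smad half-site occurs in 42.2% of all 32851 promoters of this length and a GC box in 32.7%. An E-box occurs in 6.02%, the AP-1 motif in 6.75% and the cyclic AMP response element in 1.55%. The Tgfb1 and Tgfb2 stretches therefore differed in base composition and in the motifs matched, and such matches are a description of the letters only.

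Tgfb1 (ENSMUSG00000002603, chromosome 7, 25687002 to 25705077, plus strand, GRCm38) encodes the ligand best known from platelets, immune cells and healing wounds. Its level was 8.78, 8.56 and 8.81 FPKM in WT day 0 replicates 1 to 3, and 10.2, 13.0 and 9.24 FPKM in Cthrc1-/- day 0. On day 7 it was 30.7, 14.1 and 14.3 FPKM in WT, and 11.2, 15.2 and 15.3 FPKM in Cthrc1-/-. WT day 7 replicate 1 stood far above every other library, of which the highest held 15.3 FPKM, and the genotypes overlapped on day 7. By mean level the groups ran WT day 7 (19.7 ± 9.52 FPKM, SD, n = 3), Cthrc1-/- day 7 (13.9 ± 2.36), Cthrc1-/- day 0 (10.8 ± 1.95) and WT day 0 (8.71 ± 0.139). Only the last pair of neighbours in that order did not overlap. The log2 change from day 0 to day 7 was 1.03 in WT (standard error, SE, 0.335, edgeR adjusted p 0.067) and 0.20 in Cthrc1-/- (SE 0.332, edgeR adjusted p 0.796), and neither passed the threshold of 0.05. The WT change was called by DESeq2 (1.07, adjusted p 0.0139) and by limma on log2(FPKM + 1), where it was 0.997 (adjusted p 0.0353). Without WT day 7 replicate 1 it was 0.55 (edgeR adjusted p 0.0852), and without replicate 3 it was 1.26 and passed (edgeR adjusted p 0.037).

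The neutrophil markers were highest in the library with the highest Tgfb1. Of the 5 markers S100a8, S100a9, Cxcr2, Csf3r and Ly6g, all 5 had their highest level over the 12 libraries in WT day 7 replicate 1. Their sum on day 0 was 5.81 to 10.5 FPKM in WT and 22.1 to 88.0 in Cthrc1-/-. On day 7 it was 38.6 to 4829 FPKM in WT and 379 to 1154 in Cthrc1-/-. The relation did not hold within Cthrc1-/- day 7, where replicate 1 had the highest neutrophil sum, 1154 FPKM, and the lowest Tgfb1, 11.2 FPKM. Ly6g was listed at 0 in all 6 day 0 libraries. The higher day 0 sums in Cthrc1-/- were mostly S100a8 and S100a9, with 24.1 and 62.7 of 88.0 FPKM in replicate 1. On day 0 Csf3r was at 0.45 to 0.85 FPKM in WT and 0.22 to 0.60 in Cthrc1-/-. Cxcr2 was at 0.11 to 0.31 FPKM in WT and 0.18 to 0.78 in Cthrc1-/-, so the genotypes overlapped in both. The macrophage marker sum (Adgre1, Csf1r, Cd68, Mrc1 and C1qa) was also highest in WT day 7 replicate 1, at 438 FPKM, against 42.5 to 236 FPKM in the other 11 libraries. Their part in the Tgfb1 value was not tested. In such bulk tissue, more cells of a type and more RNA per cell cannot be told apart.

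**Figure D1:**
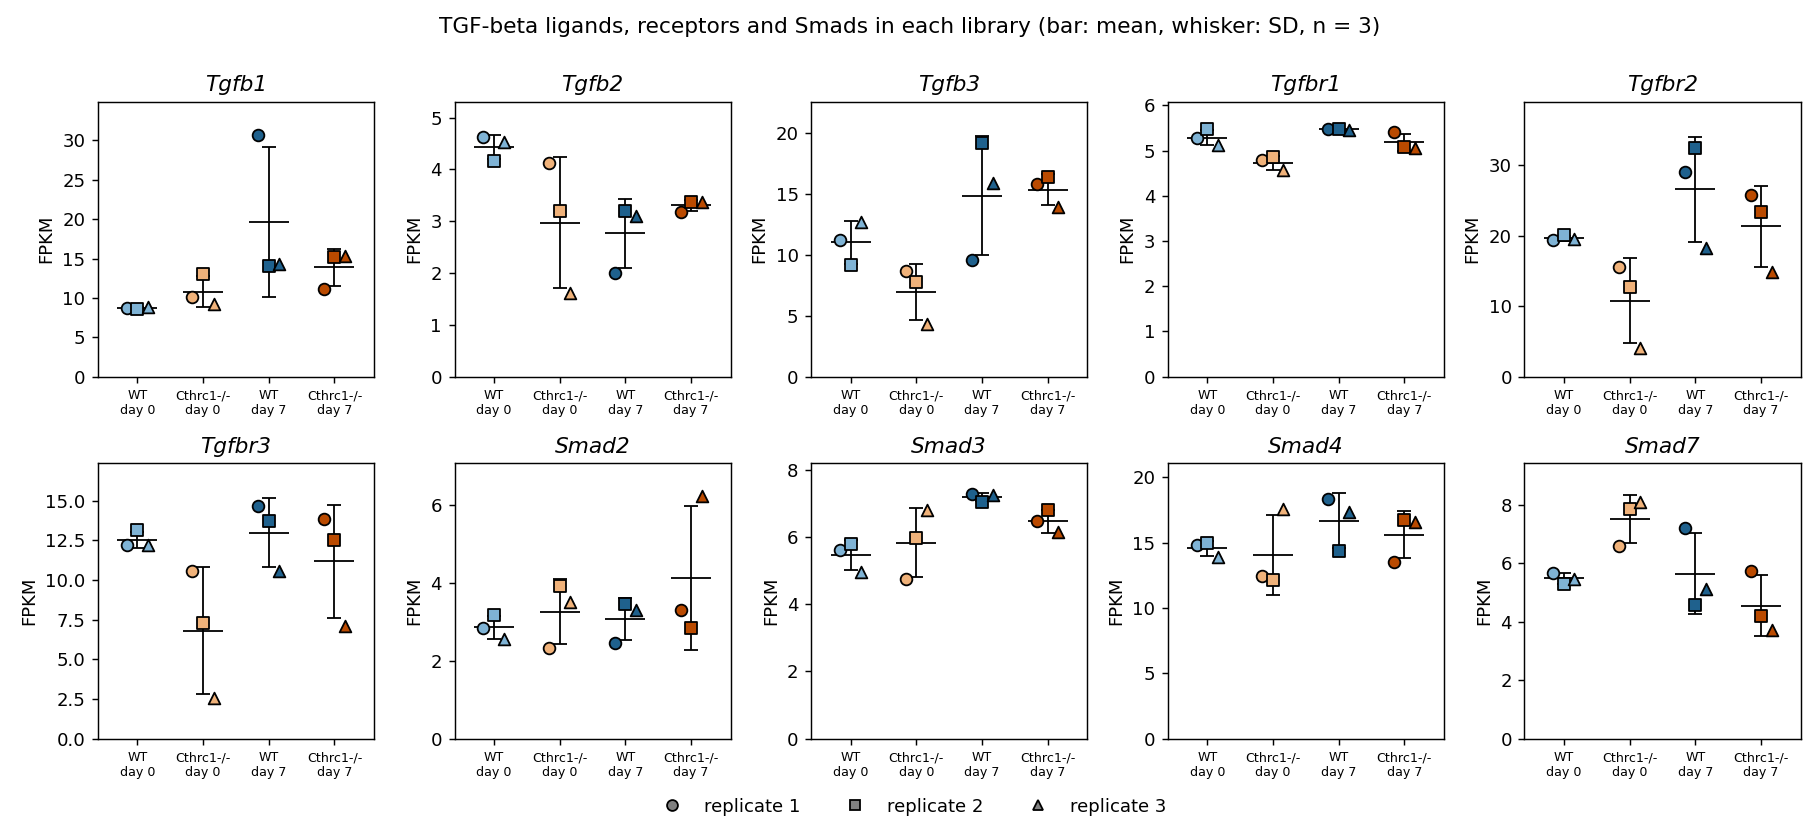
FPKM of each of the 10 genes in each of the 12 libraries, by genotype and day. Circles, squares and triangles are replicates 1, 2 and 3, horizontal bars are means and whiskers are SD (n = 3). Tgfb1 in WT day 7 replicate 1 (30.7 FPKM) lies above all other libraries, and Tgfbr2 and Tgfbr3 spread widely in Cthrc1-/- day 0.

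Tgfb2 (ENSMUSG00000039239, chromosome 1, 186622792 to 186705989, minus strand) encodes the ligand that depends most on betaglycan for receptor binding. Its level was 4.62, 4.17 and 4.52 FPKM in WT day 0 and 4.12, 3.19 and 1.62 FPKM in Cthrc1-/- day 0. The level on day 7 was 2.01, 3.19 and 3.09 FPKM in WT and 3.19, 3.38 and 3.36 FPKM in Cthrc1-/-. WT day 0 was higher than every other library, Cthrc1-/- day 0 replicate 3 was the lowest and WT day 7 replicate 1 the next lowest. The group means ran WT day 0 (4.44 ± 0.237 FPKM, SD, n = 3), Cthrc1-/- day 7 (3.31 ± 0.108), Cthrc1-/- day 0 (2.97 ± 1.26) and WT day 7 (2.76 ± 0.659), and only the first of these stood clear of its neighbour. Its log2 change from day 0 to day 7 in WT was -0.88 (SE 0.306, edgeR adjusted p 0.0787), which did not pass. It passed with DESeq2 (-0.84, adjusted p 0.0348) and when only the WT libraries were fitted (-0.88, edgeR adjusted p 0.0219). It also passed, at the same log2 change, when Cthrc1-/- day 0 replicate 1 (edgeR adjusted p 0.0474) or replicate 3 (0.00646) was left out of the shared estimate of spread. Of 20 alternative fits, these were the 4 in which it passed. Without WT day 7 replicate 1 it was -0.65 (edgeR adjusted p 0.228), and with limma on log2(FPKM + 1) it was -0.55 (adjusted p 0.117). An antisense gene is annotated across the Tgfb2 start, and whether the counting used strand is not given in the sources used here.

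Tgfb3 (ENSMUSG00000021253, chromosome 12, 86056745 to 86079041, minus strand) encodes the ligand that is studied for its part in scarring. The WT day 0 libraries held 11.2, 9.18 and 12.7 FPKM and the Cthrc1-/- day 0 libraries 8.68, 7.75 and 4.36 FPKM. On day 7 the values were 9.53, 19.2 and 15.9 FPKM in WT and 15.8, 16.3 and 13.9 FPKM in Cthrc1-/-. All Cthrc1-/- day 0 libraries were below all others, and in WT day 7 replicate 1, where Tgfb1 was highest, Tgfb3 was at the level of day 0. The means ran Cthrc1-/- day 7 (15.3 ± 1.29 FPKM, SD, n = 3), WT day 7 (14.8 ± 4.89), WT day 0 (11.02 ± 1.75) and Cthrc1-/- day 0 (6.93 ± 2.28), and the last pair of neighbours alone did not overlap. In Cthrc1-/- the log2 change from day 0 to day 7 was 0.97 (SE 0.295, edgeR adjusted p 0.119), which did not pass. It passed with DESeq2 (0.96, adjusted p 0.0229), and without WT day 7 replicate 1, which enters the shared estimate of spread, it was 1.02 (edgeR adjusted p 0.0456). Of 20 alternative fits it passed in 5. Part of Tgfb3 is overlapped by Ttll5 on the opposite strand.

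Taken as parts of their sum, the ligand transcripts differed in make-up between groups. On day 0 Tgfb1 made up 35.7%, 39.1% and 33.9% of the ligand FPKM in WT and 44.3%, 54.3% and 60.7% in Cthrc1-/-. The genotypes did not overlap in this share on day 0, and Cthrc1-/- replicate 3, with the lowest fibroblast sum, had the highest Tgfb1 share of its group. On day 7 the share was 72.7%, 38.7% and 43.0% in WT and 37.1%, 43.6% and 47.0% in Cthrc1-/-, so the genotypes overlapped and WT replicate 1 stood apart. Tgfb2 made up 17.4% to 19.0% of the sum in WT day 0 and 4.75% to 10.6% in the 6 day 7 libraries. The summed ligand FPKM on day 0 was 24.2 ± 2.08 in WT and 20.7 ± 4.78 in Cthrc1-/- (SD, n = 3 each). On day 7 the sums were 37.3 ± 4.55 in WT and 32.6 ± 2.41 in Cthrc1-/-. All 6 day 7 libraries, at 30.2 to 42.2 FPKM, were above all 6 day 0 libraries, at 15.2 to 26.0 FPKM. These sums carry no TMM scaling, the edgeR scaling used in the tests, in which a larger factor lowers a level. The TMM factors ran from 0.892 to 1.04 on day 0 and from 0.939 to 1.12 on day 7. Cthrc1-/- day 7 replicate 1 had 30.2 FPKM and a factor of 1.09, and WT day 0 replicate 3 had 26.0 FPKM and 0.892. When each sum is divided by its factor, the first lies below the second. The separation of the days thus did not hold with TMM scaling.

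**Figure D2:**
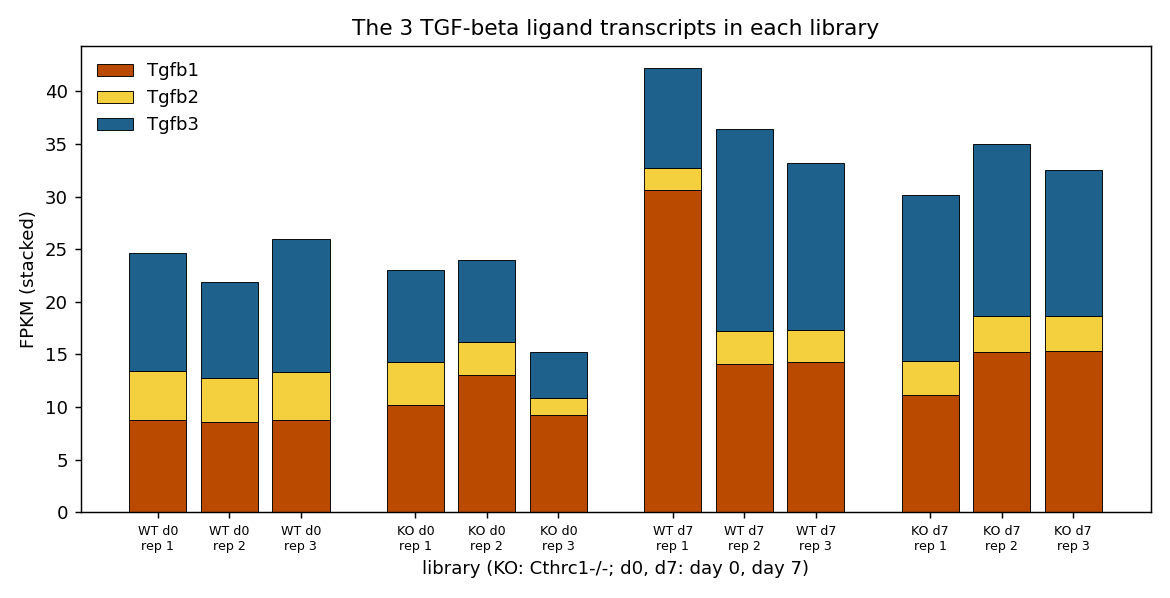
Stacked FPKM of Tgfb1, Tgfb2 and Tgfb3 in each library (KO is Cthrc1-/-, d0 and d7 are days 0 and 7). The day 7 bars (30.2 to 42.2 FPKM) are taller than the day 0 bars (15.2 to 26.0 FPKM), in FPKM without TMM scaling. Divided by the TMM factors, the sums of the days overlap. WT day 7 replicate 1 holds the largest Tgfb1 part, 72.7%.

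Tgfbr1 (ENSMUSG00000007613, chromosome 4, 47353222 to 47414931, plus strand), the type I kinase receptor that signals to the Smads, was the most even of the receptors. It was at 5.27, 5.47 and 5.12 FPKM in WT day 0 and 4.79, 4.85 and 4.56 FPKM in Cthrc1-/- day 0. The day 7 libraries held 5.47, 5.48 and 5.45 FPKM in WT and 5.40, 5.08 and 5.06 FPKM in Cthrc1-/-. Every Cthrc1-/- library was below every WT library of its day, by a small margin. Its coefficient of variation was at most 3.67% in every group. The log2 change between genotypes was -0.26 on day 0 (SE 0.11, edgeR adjusted p 0.15) and -0.16 on day 7 (SE 0.11, edgeR adjusted p 0.967). Neither passed, and on day 7 the 2 genotypes did overlap in counts scaled by TMM, the edgeR scaling used in the tests.

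Tgfbr2 (ENSMUSG00000032440, chromosome 9, 116084293 to 116175360, minus strand), the ligand-binding type II kinase receptor, had the highest mean of the 10 genes over the 12 libraries, at 19.6 FPKM. It was at 19.3, 20.1 and 19.5 FPKM in WT day 0 and at 15.6, 12.7 and 4.01 FPKM in Cthrc1-/- day 0. The day 7 levels were 29.0, 32.4 and 18.2 FPKM in WT and 25.7, 23.3 and 14.8 FPKM in Cthrc1-/-. The day 0 genotypes did not overlap, Cthrc1-/- day 0 replicate 3 was far below its group, and on day 7 the genotypes overlapped. In the order WT day 7 (26.6 ± 7.39 FPKM, SD, n = 3), Cthrc1-/- day 7 (21.3 ± 5.72), WT day 0 (19.6 ± 0.388) and Cthrc1-/- day 0 (10.8 ± 6.02), only the last pair did not overlap. On day 0 the log2 change in Cthrc1-/- was -0.94 (SE 0.458, edgeR adjusted p 0.205), and without Cthrc1-/- replicate 3 it was -0.53 (edgeR adjusted p 0.36).

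Tgfbr3 (ENSMUSG00000029287, chromosome 5, 107106570 to 107289629, minus strand), the co-receptor betaglycan, showed the same wide spread in Cthrc1-/- day 0 as Tgfbr2. Its values were 12.2, 13.1 and 12.2 FPKM in WT day 0 and 10.6, 7.28 and 2.57 FPKM in Cthrc1-/- day 0. They were 14.7, 13.8 and 10.6 FPKM in WT day 7 and 13.9, 12.6 and 7.12 FPKM in Cthrc1-/- day 7. Again the day 0 genotypes did not overlap, Cthrc1-/- day 0 replicate 3 was the lowest library and the day 7 genotypes overlapped. The means ran WT day 7 (13.0 ± 2.16 FPKM, SD, n = 3), WT day 0 (12.5 ± 0.530), Cthrc1-/- day 7 (11.2 ± 3.57) and Cthrc1-/- day 0 (6.80 ± 4.01), with overlap between all neighbours. On day 0 the log2 change in Cthrc1-/- was -0.96 (SE 0.456, edgeR adjusted p 0.197), and without replicate 3 it was -0.55 (edgeR adjusted p 0.35). On the FPKM scale the ratio of Tgfbr3 to Tgfbr2 on day 0 was 0.639 ± 0.0147 in WT and 0.631 ± 0.0515 in Cthrc1-/- (SD, n = 3 each). The ratio on day 7 was 0.503 ± 0.0770 in WT and 0.519 ± 0.0336 in Cthrc1-/-. This ratio was thus nearly equal in the 2 genotypes on each day, although within Cthrc1-/- day 0 the highest library held 3.89 times the Tgfbr2 and 4.10 times the Tgfbr3 of the lowest. By contrast the ratio of Tgfbr2 to Tgfbr1 was 3.66 to 3.80 in WT day 0 and 3.26, 2.61 and 0.880 in Cthrc1-/- day 0 replicates 1 to 3.

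Fibroblast markers were low in the Cthrc1-/- day 0 libraries in which both receptors were low. The sum of the 5 fibroblast markers on day 0 was 594 to 664 FPKM in WT and 85.7 to 415 in Cthrc1-/-. By day 7 the range was 480 to 747 FPKM in WT and 354 to 614 in Cthrc1-/-, and no marker was at 0 in any group. Within Cthrc1-/- day 0, Tgfbr2, Tgfbr3, Tgfb2, Tgfb3 and the fibroblast sum were all highest in replicate 1 and lowest in replicate 3. The hair follicle sum was lowest in replicate 1 and highest in replicate 3. Endothelial markers (Pecam1, Cdh5, Kdr, Tek and Vwf) summed on day 0 to 47.9 to 48.7 FPKM in WT and to 13.5 to 38.3 in Cthrc1-/-. The macrophage sum in Cthrc1-/- day 0 replicates 1, 2 and 3 was 97.4, 69.5 and 42.5 FPKM, against 124 to 136 FPKM in WT day 0. In the same order the keratinocyte sum was 8160, 7372 and 3810 FPKM. That of skeletal muscle markers (Acta1, Myh4, Ckm, Tnnt3 and Mylpf) was 220, 154 and 56.3 FPKM. The endothelial sum (33.2, 38.3 and 13.5 FPKM) and the adipocyte sum (93.1, 100 and 69.6 FPKM) were highest in replicate 2. Of the adipocyte markers, Fabp4 (55.9, 82.75 and 63.7 FPKM) and the low Lep were highest in replicate 2. Adipoq (18.9, 9.14 and 3.34 FPKM), Plin1 and Cidec fell from replicate 1 to replicate 3. The fall over these replicates was thus not particular to fibroblast markers. Within WT day 7 the order differed, as the fibroblast sum was lowest in replicate 1 (480 FPKM) and both receptors were lowest in replicate 3, with Tgfbr2 at 18.2 and Tgfbr3 at 10.5 FPKM. The part of these markers in the receptor values was not tested.

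**Figure D3:**
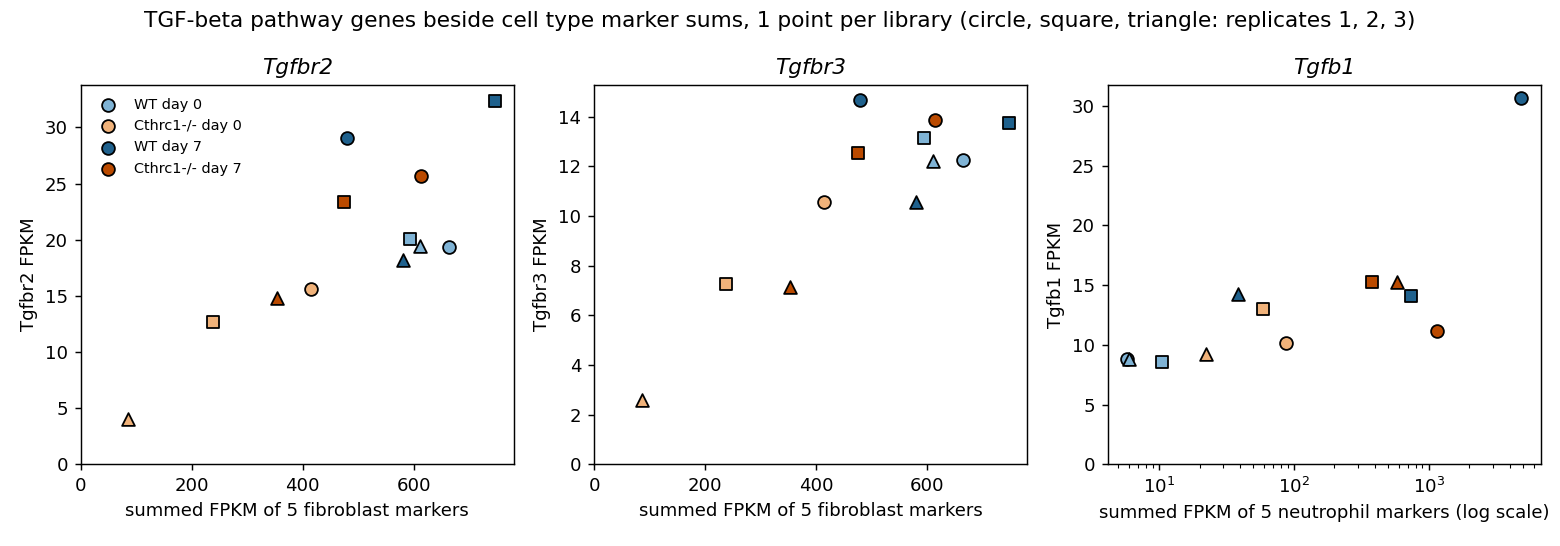
Levels of Tgfbr2, Tgfbr3 (y axes, FPKM) against the summed FPKM of 5 fibroblast markers, and of Tgfb1 against the summed FPKM of 5 neutrophil markers on a log axis, 1 point per library. Cthrc1-/- day 0 replicate 3 is lowest for both receptors and for the fibroblast sum (85.7 FPKM), and WT day 7 replicate 1 is highest for Tgfb1 and for the neutrophil sum (4829 FPKM).

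Smad2 (ENSMUSG00000024563, chromosome 18, 76241580 to 76310963, plus strand) is 1 of the 2 receptor-activated Smads of the pathway. Its mean over the 12 libraries was the lowest of the 10 genes, at 3.33 FPKM against 3.37 FPKM for Tgfb2. In Cthrc1-/- day 0 and in both day 7 groups Tgfb2 had the lowest mean. Smad2 was at 2.83, 3.17 and 2.56 FPKM in WT day 0 and 2.32, 3.93 and 3.51 in Cthrc1-/- day 0. On day 7 it was at 2.46, 3.47 and 3.30 FPKM in WT and 3.31, 2.83 and 6.23 in Cthrc1-/-. All 4 groups overlapped, and Cthrc1-/- day 7 replicate 3 alone stood above the rest. Smad3 (ENSMUSG00000032402, chromosome 9, 63646767 to 63757994, minus strand), the other receptor-activated Smad, binds DNA directly. It was at 5.63, 5.79 and 4.96 FPKM in WT day 0, 4.75, 5.96 and 6.81 in Cthrc1-/- day 0, 7.29, 7.06 and 7.26 in WT day 7, and 6.47, 6.80 and 6.14 in Cthrc1-/- day 7. WT day 7 was above every other library, and the mean was 7.20 ± 0.124 FPKM there against 6.47 ± 0.331 in Cthrc1-/- day 7 (SD, n = 3 each). The log2 change of Smad3 was -0.23 between genotypes on day 7 (SE 0.129, edgeR adjusted p 0.956) and 0.22 between days in WT (SE 0.129, edgeR adjusted p 0.272), and neither passed.

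Smad4 (ENSMUSG00000024515, chromosome 18, 73639009 to 73703780, minus strand), the common partner of the activated Smads, was second to Tgfbr2 in mean FPKM over the 12 libraries, at 15.2. It was at 14.8, 15.0 and 13.9 FPKM in WT day 0, 12.4, 12.1 and 17.6 in Cthrc1-/- day 0, 18.3, 14.4 and 17.4 in WT day 7, and 13.5, 16.8 and 16.6 in Cthrc1-/- day 7. All 4 groups overlapped, and its log2 changes in the 4 comparisons lay between -0.18 and 0.018. Smad7 (ENSMUSG00000025880, chromosome 18, 75367529 to 75395935, plus strand), the inhibitory Smad, was at 5.68, 5.29 and 5.47 FPKM in WT day 0 and 6.57, 7.85 and 8.09 in Cthrc1-/- day 0. The day 7 values were 7.20, 4.58 and 5.12 FPKM in WT and 5.73, 4.19 and 3.73 in Cthrc1-/-. Every Cthrc1-/- day 0 library was above every WT day 0 library and above every Cthrc1-/- day 7 library, while the day 7 genotypes overlapped. Its means ran Cthrc1-/- day 0 (7.51 ± 0.815 FPKM, SD, n = 3), WT day 7 (5.64 ± 1.38), WT day 0 (5.48 ± 0.197) and Cthrc1-/- day 7 (4.55 ± 1.05), and all neighbours in this order overlapped. From day 0 to day 7 in Cthrc1-/- the log2 change of Smad7 was -0.87 (SE 0.231, edgeR adjusted p 0.0868), which did not pass. It passed with DESeq2 (-0.89, adjusted p 0.00759) and, with edgeR, without WT day 7 replicate 1 (-0.84, adjusted p 0.0216). Of 20 alternative fits, these were the 2 in which it passed, and limma on log2(FPKM + 1) gave -0.63 (adjusted p 0.061). On the FPKM scale the ratio of Smad7 to Smad3 on day 0 was 1.01 ± 0.0952 in WT and 1.297 ± 0.0995 in Cthrc1-/- (SD, n = 3 each). On day 7 it was 0.781 ± 0.181 in WT and 0.703 ± 0.158 in Cthrc1-/-.

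None of the 10 genes passed the edgeR test at an adjusted p under 0.05 in any comparison. On day 0 the count between genotypes was 0 of 10, against 5.78% of the 14313 genes tested, and 2 of the 10 had an unadjusted p under 0.05. DESeq2 and limma likewise called 0. The median log2 change of the 10 was -0.22, against -0.047 over all genes tested, and 7 of 10 were negative. In FPKM 7 of the 10 genes did not overlap between the genotypes, against 41.4% of all genes tested. Of these, Tgfb1 and Smad7 were higher in Cthrc1-/- and Tgfb2, Tgfb3, Tgfbr1, Tgfbr2 and Tgfbr3 were lower. In TMM-scaled counts Tgfb1 overlapped and the other 6 did not, against a background of 41.5%. The lowest adjusted p in this comparison was that of Tgfb3, with a log2 change of -0.76 (SE 0.294, edgeR adjusted p 0.129).

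From day 0 to day 7 in WT, edgeR called 0 of the 10 genes, against 13.1% of all genes tested, and 2 had an unadjusted p under 0.05. DESeq2 called Tgfb1 and Tgfb2, and limma on log2(FPKM + 1) called Tgfb1. Tgfb1 and Smad3 were higher on day 7 and Tgfb2 was lower without overlap in FPKM, 3 of 10 against 44% of all genes tested. The same 3 did not overlap in TMM-scaled counts, against 43.1%. In Cthrc1-/- edgeR also called 0 of 10, against 1.46% of all genes tested, and 2 had an unadjusted p under 0.05. DESeq2 called Tgfb3 and Smad7, and limma on log2(FPKM + 1) called Tgfb3. In FPKM Tgfb3 and Tgfbr1 were higher and Smad7 lower on day 7 without overlap, 3 of 10 against 26.5%. In TMM-scaled counts this held for Tgfb3 and Smad7, against 24.3%. The log2 change of Tgfbr1 between days in Cthrc1-/- was -0.027 with TMM and 0.15 with total-count scaling. Total-count scaling raised the median log2 change of all genes between days to 0.20 in WT and 0.16 in Cthrc1-/-, so directions below that size depend on the scaling. Of all genes called, 46% were higher on day 7 in WT with TMM and 75.5% with total-count scaling. In Cthrc1-/- these shares were 58.9% and 86.9%. Between genotypes on day 0 they were 60.8% and 71.4%.

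**Figure D4:**
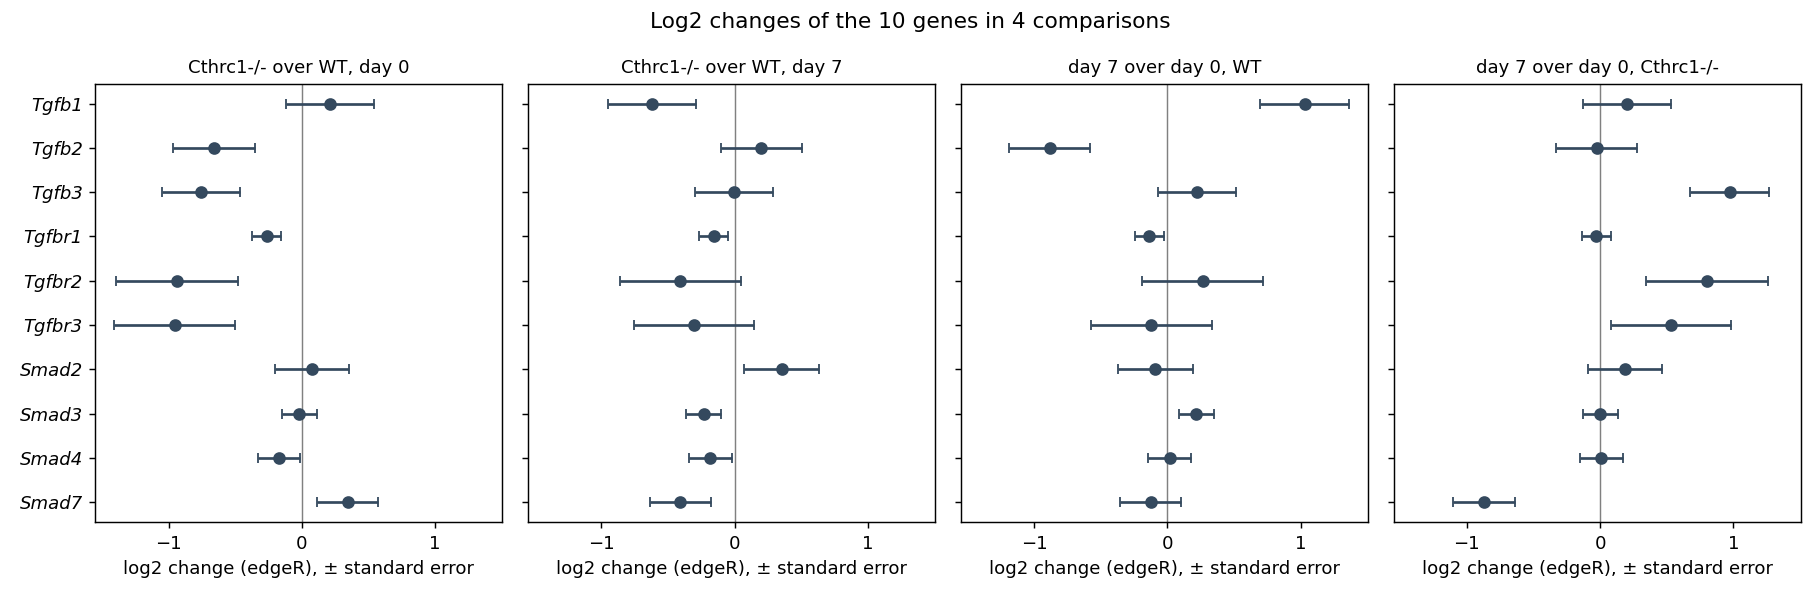
Log2 change of each of the 10 genes in 4 comparisons, from the edgeR fit on counts; points are estimates and whiskers are standard errors. Between genotypes the 5 lowest values on day 0 belong to Tgfbr3, Tgfbr2, Tgfb3, Tgfb2 and Tgfbr1, and in WT Tgfb1 (1.03) and Tgfb2 (-0.88) lie on opposite sides between days.

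Between genotypes on day 7, edgeR called 0 of the 10 genes, against 0.021% of the 14313 genes tested, and 0 of 10 had an unadjusted p under 0.05. DESeq2 and limma called 0 as well. In FPKM, Tgfbr1 and Smad3 were lower in Cthrc1-/- without overlap, 2 of 10 against 9.13% of all genes tested. In TMM-scaled counts this held for Smad3 alone, against 9.08%. The largest log2 change was that of Tgfb1, -0.62 (SE 0.333, edgeR adjusted p 0.949). It rested on WT replicate 1: without that library the log2 change was -0.045 and the WT mean was 14.2 FPKM instead of 19.7, against 13.9 FPKM in Cthrc1-/-.

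Leaving out WT replicate 1 also moved other genes. Smad7 went from a log2 change of -0.41 to -0.11, Smad4 from -0.18 to -0.038 and Tgfbr3 from -0.30 to -0.14. Tgfb3 moved the other way, from -0.007 to -0.21, and Tgfb2 went from 0.20 to 0.056. Tgfbr2 went from -0.41 to -0.28, Tgfbr1 from -0.16 to -0.094, Smad3 from -0.23 to -0.16 and Smad2 from 0.35 to 0.27. All 10 kept their sign, 8 negative and 2 positive, and 9 of 10 came nearer to 0, Tgfb3 being the exception. None passed the edgeR test with or without the library. On the FPKM scale the ratio of the Cthrc1-/- mean to the WT mean ranged from 0.707 for Tgfb1 to 1.34 for Smad2 with all libraries, and from 0.842 for Tgfbr2 to 1.22 for Smad2 without WT replicate 1. Single other libraries moved the receptors too. Without Cthrc1-/- day 7 replicate 3 the log2 change was -0.059 for Tgfbr3 and -0.196 for Tgfbr2, and without WT day 7 replicate 3 that of Tgfbr2 was -0.65.

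**Figure D5:**
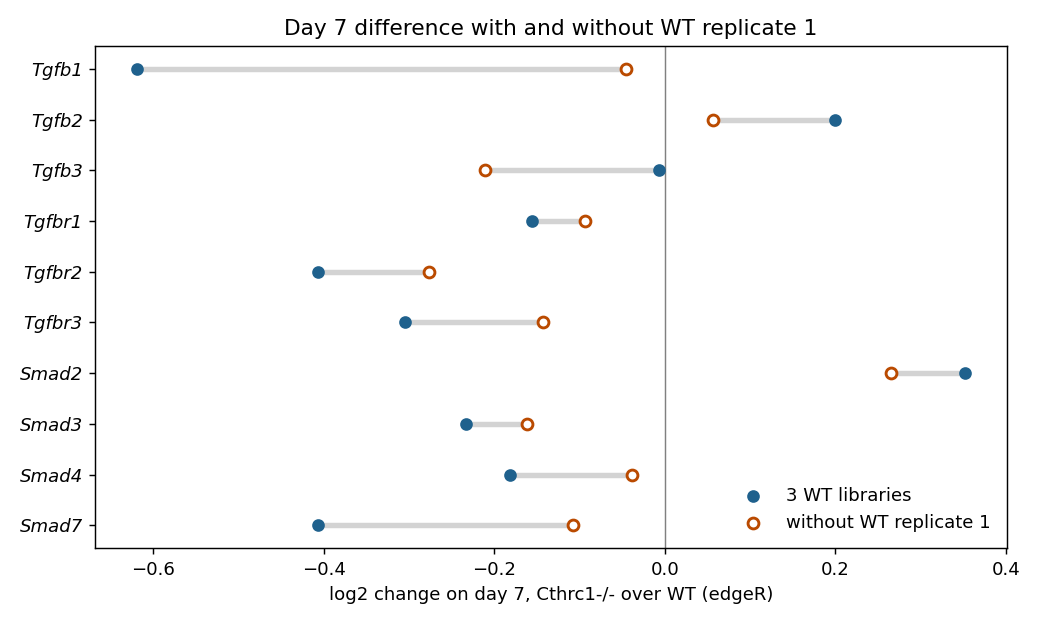
Log2 change between genotypes on day 7 for each of the 10 genes, with all 3 WT libraries (filled points) and without WT replicate 1 (open points), from edgeR; grey bars join the 2 values of a gene. The Tgfb1 value goes from -0.62 to -0.045, and all other genes move by less.

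The interaction of genotype and day asked whether the difference between days itself differed between the genotypes. edgeR called 0 of the 10 genes, against 0.014% of all genes tested, as did DESeq2 and limma, and 1 of the 10, Smad7, had an unadjusted p under 0.05. For Smad7 the interaction was -0.75 on the log2 scale (SE 0.324, edgeR adjusted p 0.317). Tgfb1 had the lowest value, -0.83 (edgeR adjusted p 0.417), and Tgfb2 the highest, 0.86 (edgeR adjusted p 0.37). Without WT day 7 replicate 1 the value was -0.306 for Tgfb1, -0.511 for Smad7 and 0.675 for Tgfb2, and Tgfbr3 was then highest at 0.778. Without Cthrc1-/- day 0 replicate 3 that of Tgfb2 was 0.535. Thus the tests did not show that any of the 10 genes differed between the genotypes in its change over 7 days.

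Genes that hold TGF-beta latent or release it were next examined as a list of 14, all of them tested. Between days in WT edgeR called 4 of 14, against 13.1% of all genes tested. Emilin1, an extracellular matrix protein that binds the Tgfb1 precursor, rose by 2.27 on the log2 scale (SE 0.572, edgeR adjusted p 0.0306). Its values were 5.56, 4.70 and 5.74 FPKM on day 0 and 55.9, 17.6 and 9.92 FPKM on day 7, so that all day 7 libraries were higher and replicate 1 was highest. Without WT day 7 replicate 1 the log2 change was 1.23, and the call was lost in 4 of 20 alternatives, among them each fit without 1 WT day 0 library. The latent TGF-beta binding proteins Ltbp1, Ltbp3 and Ltbp4, which tether latent ligand to the matrix, fell by log2 changes of -1.18, -0.46 and -0.96 (edgeR adjusted p 0.0416, 0.0225 and 0.0216). These calls were lost in 13, 9 and 4 of the 20 alternatives. Over the same days in WT the hair follicle sum went from 8.40 to 10.97 FPKM up to 1672 to 3909 FPKM, and the adipocyte sum from 137 to 177 FPKM down to 44.9 to 75.5 FPKM. The part of these markers in the Ltbp falls was not tested. The median log2 change of the list was -0.36, against -0.002 over all genes tested. In the other 4 tests edgeR called 0 of 14, against 0.014% to 5.78% of all genes tested. Unadjusted p-values under 0.05 numbered 3 between genotypes on day 0, 2 on day 7, 5 between days in Cthrc1-/- and 2 in the interaction. DESeq2 called 2, 0, 5 and 0 and limma on log2(FPKM + 1) called 0 in each. On day 0 the 2 smallest p-values belonged to Dcn (decorin, a proteoglycan that binds TGF-beta; -1.34, edgeR adjusted p 0.116) and Fbn1 (fibrillin-1, the microfibril to which latent complexes bind; -1.53, edgeR adjusted p 0.126). On day 7 they belonged to Emilin1 (-1.48, edgeR adjusted p 0.907) and Thbs1, thrombospondin-1, an activator of latent ligand (-2.38, edgeR adjusted p 0.907). Thbs1 was at 369 FPKM in WT day 7 replicate 1 and at 26.4 to 76.3 FPKM in all other libraries. Without that library its day 7 log2 change was 0.10, the opposite direction, and that of Emilin1 was -0.342. Between days in Cthrc1-/- they were Ltbp3 (-0.48, edgeR adjusted p 0.0585) and Itgav (-2.29, edgeR adjusted p 0.142), and in the interaction Furin (-0.94, edgeR adjusted p 0.25) and Ltbp4 (0.84, edgeR adjusted p 0.26). Itgav is an integrin subunit and Furin a protease that cleaves the precursor, both known from ligand activation. The Furin interaction was -0.601 without WT day 7 replicate 1.

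Of 12 further receptors, co-receptors and anchors, 11 passed the filter on low values and Acvr2b did not. edgeR called Cd109, a membrane-anchored TGF-beta co-receptor that inhibits signalling, between days in WT (-1.09, SE 0.306, edgeR adjusted p 0.0439). It called Acvr1, a type I receptor of the bone morphogenetic protein branch, between days in Cthrc1-/- (-0.54, SE 0.114, edgeR adjusted p 0.0495). Each was the 1 call of 11 in its comparison, against 13.1% and 1.46% of all genes tested. Both calls lay close to the threshold and were lost in 15 and 16 of 20 alternatives. Between genotypes edgeR called 0 of 11 on day 0, against 5.78% of all genes tested. There 1 had an unadjusted p under 0.05 and DESeq2 called 1. On day 7 and in the interaction edgeR called 0 of 11, against 0.021% and 0.014% of all genes tested. In these 0 had an unadjusted p under 0.05 and DESeq2 and limma called 0. The smallest p-values were those of Acvr1b (0.46, edgeR adjusted p 0.0726) and Acvrl1 (-1.39, edgeR adjusted p 0.201) on day 0. They were those of Acvr1 (-0.25, edgeR adjusted p 0.908) and Acvrl1 (-1.04, edgeR adjusted p 0.957) on day 7, and of Acvr1b (-0.39, edgeR adjusted p 0.367) and Bambi (-1.28, edgeR adjusted p 0.445) in the interaction. Without WT day 7 replicate 1 the day 7 value of Acvrl1 was -0.159, and without Cthrc1-/- day 0 replicate 3 the interaction of Bambi was -0.688. Acvrl1 is the type I receptor of endothelial cells and Bambi a pseudoreceptor that inhibits signalling.

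Of 14 other Smads and negative regulators, 13 passed the filter and Smad9 did not. Smad1, which carries bone morphogenetic protein signals, rose between genotypes on day 0 (0.50, SE 0.111, edgeR adjusted p 0.0381). It was the 1 call of 13 in that comparison, against 5.78% of all genes tested. The call was lost in 12 of 20 alternatives, limma among them. Pmepa1, a target of the pathway that dampens it, rose between days in WT (1.14, SE 0.256, edgeR adjusted p 0.0205). This was again the 1 call of 13, against 13.1% of all genes tested. Pmepa1 was at 6.24 to 8.70 FPKM in the 3 WT day 0 libraries and in Cthrc1-/- day 0 replicate 1, and at 16.8 to 20.2 FPKM in the other 8 libraries. Cthrc1-/- day 0 replicates 2 and 3 thus had day 7 levels of Pmepa1, and these are the libraries with hair follicle sums of 4711 and 11580 FPKM. The order did not hold on day 7. There Cthrc1-/- replicate 2 had a hair follicle sum of 504 FPKM with Pmepa1 at 16.8 FPKM. WT replicate 1 had a sum of 1672 FPKM and the highest Pmepa1, 20.2 FPKM. The part of these markers in the Pmepa1 values was not tested. In the other 3 tests edgeR called 0 of 13, against 0.014% to 1.46% of all genes tested. Unadjusted p-values under 0.05 numbered 1 on day 7, 0 between days in Cthrc1-/- and 2 in the interaction. DESeq2 and limma called 0 in these too. The smallest p-values on day 7 were those of Smad1 (0.30, edgeR adjusted p 0.907) and the ubiquitin ligase Smurf2 (-0.24, edgeR adjusted p 0.931). Between days in Cthrc1-/- they were those of the corepressor Tgif1 (-0.56, edgeR adjusted p 0.308) and Smurf2 (-0.23, edgeR adjusted p 0.346). In the interaction they were those of Pmepa1 (-1.08, edgeR adjusted p 0.239) and the inhibitory Smad6 (-1.48, edgeR adjusted p 0.296).

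A last list held 18 known targets of the pathway, all of them tested. On day 0 16 of 18 were negative, with a median log2 change of -0.91 against -0.047 over all genes tested. There edgeR called 4 of 18, all lower in Cthrc1-/-, against 5.78% of all genes tested. They were Col1a2, a chain of type I collagen (-2.43, SE 0.609, edgeR adjusted p 0.048), Acta2, the smooth muscle actin of myofibroblasts and vessel walls (-1.28, SE 0.275, edgeR adjusted p 0.0357), the actin-binding Tagln (-0.89, SE 0.208, edgeR adjusted p 0.0419) and the transcriptional regulator Id1 (-0.92, SE 0.205, edgeR adjusted p 0.0386). Each of these calls was lost in 9 to 13 of 20 alternatives, among them each fit without 1 WT day 0 library and that without Cthrc1-/- day 0 replicate 2. The sums of fibroblast and endothelial markers given above were lower in the same 3 libraries, and their part in these falls was not tested. From day 0 to day 7 in WT edgeR called 2 of 18, against 13.1% of all genes tested. Timp1, an inhibitor of matrix metalloproteinases, rose by 6.02 (SE 1.5, edgeR adjusted p 0.0295) and Id1 fell by 1.93 on the log2 scale (SE 0.211, edgeR adjusted p 0.00268). The Id1 call held in all 20 alternatives, whereas that of Timp1 was lost in 8, and without WT day 7 replicate 1 its log2 change was 1.9. In Cthrc1-/- Acta2 rose between days by 1.47 (SE 0.276, edgeR adjusted p 0.0394), the 1 call of 18, against 1.46% of all genes tested. This call was lost in 9 of 20 alternatives, among them each fit without 1 Cthrc1-/- day 7 library. The medians were -0.018 between days in WT and 0.69 in Cthrc1-/-, against -0.002 and -0.013 over all genes tested. The Cthrc1-/- median was 0.205 without day 0 replicate 3, and the WT median was -0.13 without day 7 replicate 1.

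Between genotypes on day 7 edgeR called 0 of the 18 targets, against 0.021% of all genes tested. Of the 18, 5 had an unadjusted p under 0.05, and DESeq2 and limma called 0. The median log2 change was -0.85, against -0.005 over all genes tested, and it rested on 1 library. Without WT day 7 replicate 1 it was -0.115, with 8 of 18 positive, against -0.004 over all genes tested. Among the smallest p-values was that of Timp1 (-4.67, SE 1.41, edgeR adjusted p 0.907). Timp1 was at 2721 FPKM in WT day 7 replicate 1, against 8.70 to 75.7 FPKM in all other libraries. Without that library its log2 change was -0.46. Snai1, a repressor of epithelial genes, and Lox, a collagen crosslinking enzyme, were highest in the same library as well, at 60.9 and 232 FPKM. The interaction had 0 calls with edgeR, against 0.014% of all genes tested. It had 5 unadjusted p-values under 0.05, 2 calls with DESeq2 and 0 with limma. The smallest p-values there were those of Id1 (1.17, edgeR adjusted p 0.193) and Acta2 (1.501, edgeR adjusted p 0.193).

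The genes whose levels were most like those of each of the 10 were ranked by Pearson r of log2(FPKM + 1) over the 12 libraries. These libraries share groups and the differences in tissue make-up given above, and no test is attached. Tgfb3 was most like Plagl1 (r = 0.979, Spearman rho 0.993), Dact3 (r = 0.979) and Itm2a (r = 0.962). Among the genes nearest to Tgfb2 were Il34 (r = 0.977, rho 0.930) and Ramp1 (r = 0.960). Tgfb1 was most like Cmtm7 (r = 0.966, rho 0.923), Cyth1 (r = 0.946) and Adamts9 (r = 0.946). The genes nearest to Tgfbr2 were Lamc1 (r = 0.973, rho 0.888), Mrc1 (r = 0.968) and Cd81 (r = 0.967), and those nearest to Tgfbr3 were Mmp2 (r = 0.975, rho 0.797), Tcaf1 (r = 0.974) and Pros1 (r = 0.973). Mrc1 belongs to the macrophage markers used here. Tgfbr1 was nearest to Wdfy2 (r = 0.950), Rian (r = 0.939) and Cercam (r = 0.931), and Smad3 to Ganab (r = 0.950), Afg3l2 (r = 0.932) and Naa25 (r = 0.931). For Smad7 they were Plk3 (r = 0.942), Dusp10 (r = 0.909) and Tmed5 (r = 0.858), for Smad4 4833419F23Rik (r = 0.927), Dhx34 (r = 0.903) and Ints12 (r = 0.855), and for Smad2 Gm7984 (r = 0.885), Swsap1 (r = 0.858) and Thg1l (r = 0.855). The highest r was thus lower for Smad2 than for any of the other 9 genes.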

How the data were processed

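Sequenced poly(A) RNA of 12 dermis libraries was examined, with groups taken from the sample titles. Libraries were strand-specific (dUTP) and carried molecular identifiers, per the labels' protocols. The submitters' processing notes name cutadapt 1.9, HISAT2 2.0.4, UMI-tools, StringTie 1.3.4d, DESeq2, edgeR and GRCm38, with no role or order. The authors deposited whole-number counts and FPKM per gene. Every count of 0 had a deposited FPKM of 0.0001, taken here as 0. Low counts pile up at multiples of 4, so a count may not be 1 fragment. Symbols and positions came from GENCODE M21.

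Counts were tested with edgeR 4.0.16 (quasi-likelihood, TMM, two-sided, R 4.3.3) in 1 fit of the 4 groups, on the 14313 genes averaging 1 FPKM or more. P-values were adjusted over these by Benjamini-Hochberg, and a call is an adjusted p under 0.05. The SE was computed from the log2 change and its F statistic. The procedure was tested on simulated counts with the same dispersion for all genes and no outlying libraries. That test cannot show how it performs on these data, whose libraries differ more. The 10 genes and the lists were chosen with earlier results of these data known. Named were the 10 genes, the called genes of each list (beyond 4, the 2 largest rises and falls), and where none was called the 2 with the smallest p. Of the genes so named, 2 are not reported here. P-values measure the spread between libraries labelled biological replicates. Alternatives were DESeq2 1.42.0, limma 3.58.1 (trend) on log2(FPKM + 1) and log2(FPKM + 0.1), total-count scaling, no filter, only the groups compared, counts divided by 4, a replicate block and leaving out each library.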

Additional observations from a re-analysis of the deposited data

How the results depend on the processing

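The 10 genes gave 990 values under the alternatives. Of these, 910 kept their direction and side of the threshold, and 16 newly passed it. That 0 ceased to pass was fixed beforehand, since none passed as reported. A further 64 changed sign, none of them with a reported log2 change above 0.352 in size. The cause was not tested. With all genes, DESeq2 called 2787 between genotypes on day 0 and 62 on day 7, 3551 between days in WT, 1409 in Cthrc1-/- and 681 in the interaction, against 827, 3, 1880, 209 and 2 reported. Limma on log2(FPKM + 1) called 8 on day 7, 775 between days in Cthrc1-/- and 4 in the interaction, and on log2(FPKM + 0.1) 5, 773 and 1. Total-count scaling called 747 between days in Cthrc1-/- and 1 in the interaction. Without a filter 275 were called on day 0 and 1 in the interaction. With only the compared groups 19 were called on day 0 and 89 between days in Cthrc1-/-.

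Of the 10 genes, between days in WT DESeq2 called 2, and limma with either pseudocount, total-count scaling and the fit of the WT groups alone each called 1. In Cthrc1-/- DESeq2 called 2, and limma with either pseudocount and total-count scaling 1. Leaving out 1 library gave 18 to 2146 genes on day 0, 0 to 4 on day 7, 527 to 3005 between days in WT, 5 to 911 in Cthrc1-/- and 0 to 242 in the interaction. It gave 0 to 1 of the 10 between days in WT and 0 to 2 in Cthrc1-/-. The day 0 extremes came without WT day 0 replicates 2 or 3 (18 each) and without Cthrc1-/- day 0 replicate 1 (2146).

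The replicate numbers were not taken as pairs, since the labels do not say whether libraries share an animal. Same-numbered libraries correlated at -0.032 to 0.054 on day 0 and at -0.232 to 0.139 on day 7. Between days they correlated at 0.023 to 0.087 in WT, where 6 of 6 correlated best with their own number, and at -0.124 to 0.426 in Cthrc1-/-. Those of Cthrc1-/- day 0 and WT day 7, which were not compared, correlated at 0.124 to 0.222. Such correlations cannot decide whether libraries share an animal. With a replicate block 883, 2, 1467, 291 and 1 genes were called in the 5 tests, 0 of the 10 among them. The share of higher calls on day 0 was 49.5% with the block, 74.2% with no filter and 60.8% as reported. In Cthrc1-/- between days it was 73.5% with the block, 75.3% with only the 2 groups, 85.3% and 86.7% with limma and 58.9% as reported, and in WT 65.7% and 69.3% with limma and 46% as reported.

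Sign changes were as follows. Smad3 on day 0 was 0.036 with DESeq2, 0.074 and 0.084 with limma (pseudocounts 1 and 0.1), 0.094 with total-count scaling, 0.013 with no filter and 0.052 with only the day 0 groups. Tgfb3 on day 7 was 0.093 and 0.102 with limma, 0.052 with total-count scaling and 0.001 with no filter. Between days in WT, with limma at either pseudocount and with total-count scaling, Tgfbr1 was 0.041, 0.048 and 0.059, Tgfbr3 0.037, 0.039 and 0.063, Smad2 0.074, 0.093 and 0.117, and Smad7 0.015, 0.014 and 0.051. In Cthrc1-/-, in the same order, Tgfb2 was 0.171, 0.245 and 0.17 and Tgfbr1 0.108, 0.128 and 0.147. With only the Cthrc1-/- groups Tgfb2 was 0.029 and Tgfbr1 0.012, with DESeq2 Smad3 was -0.014 and Smad4 -0.009, and with the replicate block Tgfb2 was 0.016. The Smad4 interaction with the block was 0.001.

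Leaving out 1 library moved Smad2 from -0.112 to 0.247 and Smad3 from -0.086 to 0.083 on day 0. On day 7 it moved Tgfb3 from -0.211 to 0.206, Smad2 from -0.059 to 0.555 and Thbs1 from -2.889 to 0.102. Between days in WT it moved Tgfbr3 from -0.189 to 0.053, Smad2 from -0.169 to 0.096, Smad4 from -0.03 to 0.134 and Smad7 from -0.328 to 0.027. In Cthrc1-/- it moved Tgfb2 from -0.349 to 0.315, Tgfbr1 from -0.101 to 0.015, Smad2 from -0.225 to 0.389, Smad3 from -0.098 to 0.07 and Smad4 from -0.067 to 0.14. In the interaction it moved Smad2 from -0.135 to 0.479 and Smad4 from -0.125 to 0.122. The counts of called list genes, their log2 changes and medians without each library, and the overlap in TMM-scaled counts were added after the values had been seen. Each of the 10 genes had 501 counts or more in each library. How far depth limits precision was not determined, since a count may not be 1 fragment.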

Other observations

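Ski, a corepressor of the Smads, fell into separate levels that cut across the groups. It was at 4.25 to 6.95 FPKM in 5 libraries, namely WT day 0 replicate 3, Cthrc1-/- day 0 replicate 1, WT day 7 replicate 2 and Cthrc1-/- day 7 replicates 2 and 3. It was at 22.1 to 29.3 FPKM in the other 7, with no library between. Smad5 was at 2.20 FPKM in Cthrc1-/- day 0 replicate 2 and at 5.67 to 15.95 FPKM in all other libraries. Both genes were chosen for mention after their values were seen.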
